A study of Arabidopsis thaliana with 6 samples.

Results

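The 4 genes described here, AT3G27200, AT5G26330, AT1G72230 and AT1G22480, code for cupredoxins, small blue copper proteins of Arabidopsis thaliana. They were picked by locus for how they compared between induced and uninduced cells in earlier results of these same arrays. All 4 have a probe of their own, 1 each, among the 16548 genes that the array annotation pairs with a probe. Their difference between the groups is therefore given as a description, with no test. The cells were a suspension culture transformed with an estrogen-inducible VND1-GFP construct and grown in the dark. VND1 is a NAC transcription factor that can switch on the differentiation of vessel elements, the water pipes of the xylem, which lignify their walls and die. In the induced group, 3 samples received 5 µM estrogen and were collected after 24 h. In the uninduced group, 3 samples of the same transformed culture spent the same 24 h without estrogen. Every sample carries the construct and none is from untransformed cells, so effects of VND1 and of estrogen cannot be told apart. The sources used here do not say whether the culture came from a single transformation event, or whether samples of a group were grown separately, so a p-value here measures the spread between these samples alone, and that spread may be technical.

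Cupredoxins share a compact barrel fold, which typically holds a copper ion in a site tuned for passing single electrons. Where copper is bound, the strong absorption of that site makes such proteins blue. Plastocyanin, the electron carrier of photosynthesis, is the best known of them. Plants also have a secreted branch, the phytocyanins, which includes uclacyanins, stellacyanins, plantacyanins and the early nodulin-like proteins. Many phytocyanins are sent to the cell surface, where a glycolipid anchor can hold them at the plasma membrane, and a uclacyanin takes part in the patterned deposition of lignin in the Casparian strip of the root endodermis. Multicopper oxidases, among them the laccases that oxidise lignin precursors, are built from repeated domains of the same fold.

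Each of the 6 Affymetrix AraGene arrays gave a value for 38408 probes, between 0.30 and 14.05, read here as log2 signal. The array numbers in the titles form a run of 2 (replicate 1 of each group) and a run of 4 (replicates 2 and 3 of each group), with no word in the labels on their meaning. The median probe lay at 6.15 and 6.08 in the run of 2 and between 5.41 and 5.55 in the run of 4. Values identical to the last deposited digit were shared by 721 probes between both arrays of the run of 2, by 15 to 66 probes between any 2 arrays of the run of 4, and by 0 to 16 probes between arrays of different runs. None of the 4 cupredoxin probes had a value shared in that way within the run of 2. Of 11 listed marker genes of green cells, RCA (Rubisco activase) was the only one measured by name, and its values lay between 4.25 and 5.29. Of 11 vessel element markers, only the peroxidase gene PRX66 (AT5G51890) was measured by name, at 3.44 to 4.55 in uninduced and 9.47 to 9.92 in induced samples. VND1 was not analysed here. The number of arrays limits the precision of every value.

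The 4 cupredoxins fell into 2 that were far higher in induced cells and 2 that lay low in both groups. AT3G27200 and AT5G26330 stood 30.4-fold and 22.8-fold higher with estrogen. AT1G72230 and AT1G22480 stood at 1.14 and 0.881 times their uninduced level, with values of the groups interleaved. In RNA from whole cultures, more cells with the transcript and more transcript per cell cannot be told apart.

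AT3G27200 gave log2 values of 4.77, 3.43 and 3.40 in uninduced replicates 1 to 3. In induced replicates 1 to 3 it gave 9.25, 8.70 and 8.43. The lowest induced value lay 3.66 above the highest uninduced one, so the groups were far apart, and the array of the run of 2 was the highest within each group. The means were 3.86 ± 0.78 (SD, n = 3) and 8.79 ± 0.42 (SD, n = 3), a difference of 4.93 ± 0.44 on the log2 scale (moderated SE from limma, a linear model fitted to all probes). With genes ordered from the largest increase in induced samples downward, it was number 6 of the 16548 genes. Its 2 uninduced values in the run of 4 differed from each other by 0.02.

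AT5G26330 gave log2 values of 6.195, 4.96 and 4.58 in uninduced replicates 1 to 3. In induced replicates 1 to 3 it gave 10.06, 9.46 and 9.75. The groups were again far apart, by 3.27 between the lowest induced and the highest uninduced value, and the run of 2 again held the highest value of each group. The means were 5.25 ± 0.84 (SD, n = 3) and 9.76 ± 0.30 (SD, n = 3), a difference of 4.51 ± 0.45 (moderated SE). That put the gene at number 12 of 16548 by the same ordering. Both ranks come from the contrast that the genes were chosen for. Over all 3 arrays of a group, uninduced samples were the more scattered for both AT3G27200 and AT5G26330. After the median of each array was subtracted, the SD over induced samples was 0.16 and 0.19 for these genes and the SD over uninduced samples was 0.46 and 0.54. Within the run of 4 this order did not hold for AT3G27200. There its 2 induced values differed by 0.27 and its 2 uninduced values by 0.02, against 0.28 and 0.38 for AT5G26330.

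AT1G72230 gave log2 values of 4.54, 3.73 and 3.72 in uninduced replicates 1 to 3. In induced replicates 1 to 3 it gave 4.74, 3.88 and 3.93. Uninduced replicate 1 lay above 2 of the 3 induced arrays, so the groups overlapped. The means were 3.996 ± 0.48 (SD, n = 3) and 4.18 ± 0.48 (SD, n = 3), a difference of 0.19 ± 0.35 (moderated SE). Within each run the induced samples were slightly higher, by 0.20 in the run of 2 and by 0.18 in the run of 4.

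AT1G22480 gave log2 values of 4.95, 4.25 and 4.13 in uninduced replicates 1 to 3. In induced replicates 1 to 3 it gave 5.12, 4.10 and 3.56. The induced samples included both the highest and the lowest of the 6 values. The means were 4.44 ± 0.45 (SD, n = 3) and 4.26 ± 0.79 (SD, n = 3), a difference of -0.18 ± 0.46 (moderated SE). The runs disagreed in sign for this gene, with 0.17 in the run of 2 and -0.36 in the run of 4.

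**Figure D1:**
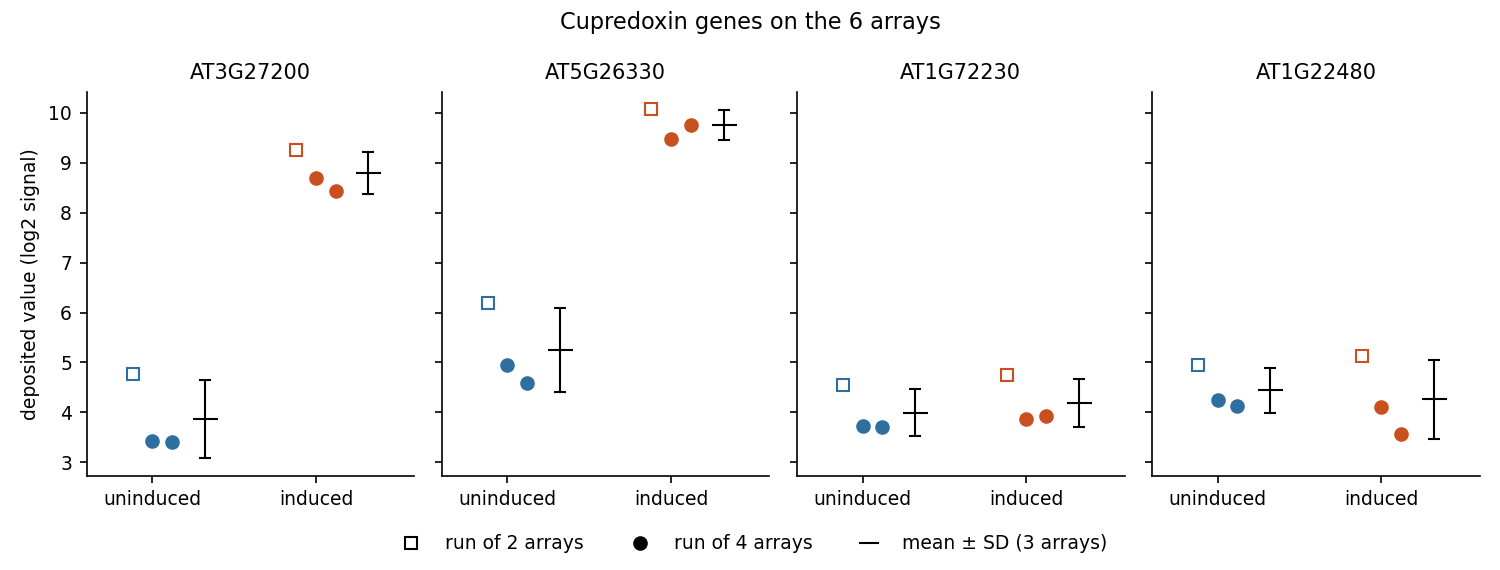
Deposited log2 signal (vertical axis) of the 4 cupredoxin genes in uninduced and induced samples; open squares are arrays of the run of 2, filled circles arrays of the run of 4, and the bars beside them give the mean ± SD of 3 arrays. Induced arrays of AT3G27200 and AT5G26330 lie at least 3.66 and 3.27 above the uninduced ones, while the groups of AT1G72230 and AT1G22480 overlap.

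In the comparison of all probes, which the choice of the genes rested on, 205 of 38408 probes were higher in induced cells (0.534%) and 0 lower (limma with Benjamini-Hochberg adjustment, threshold 0.05). Before adjustment limma called 2204 probes in either direction at that threshold, and with the run as a block it called 381 higher and 13 lower after adjustment. AT3G27200 and AT5G26330 were among the 205, and AT1G72230 and AT1G22480 were not. For 2 of the 4 genes every induced value exceeded every uninduced one, against 5.7% of all probes. The median of the 4 differences was 2.35, and the median over all probes was -0.02. These counts follow from how the genes were chosen.

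The position of a probe among the 38408 values of its own array does not depend on the overall level of that array. On the uninduced arrays AT3G27200 lay between the 16.7th and the 26.1st percentile. On the induced arrays it lay between the 81.2nd and the 86.6th percentile. AT5G26330 went from the 36.9th to 51.7th percentile in uninduced samples to the 89.6th to 92.0th percentile in induced samples. Its uninduced values thus sat near the middle of the array, while those of AT3G27200 sat in or just above the lowest 25%. Background was not estimated here, so a fold that starts from a value at background understates the change.

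AT1G72230 kept to a narrow band low on every array, from the 22.0th to the 23.0th percentile in uninduced samples and from the 24.5th to the 26.3rd percentile in induced samples. On this scale its 3 induced arrays all lay above its 3 uninduced ones, as did those of 7.95% of all probes. AT1G22480 ranged from the 29.6th to the 32.8th percentile in uninduced samples and from the 19.7th to the 31.95th percentile in induced samples. Its lowest position was that of induced replicate 3, and the other 5 arrays lay within a few percentiles of each other. By its mean over the 6 arrays AT1G72230 fell among the lowest 25% of probes (4.09, where that class ended at 4.14). The other 3 genes passed that filter, AT1G22480 with a mean of 4.35.

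**Figure D2:**
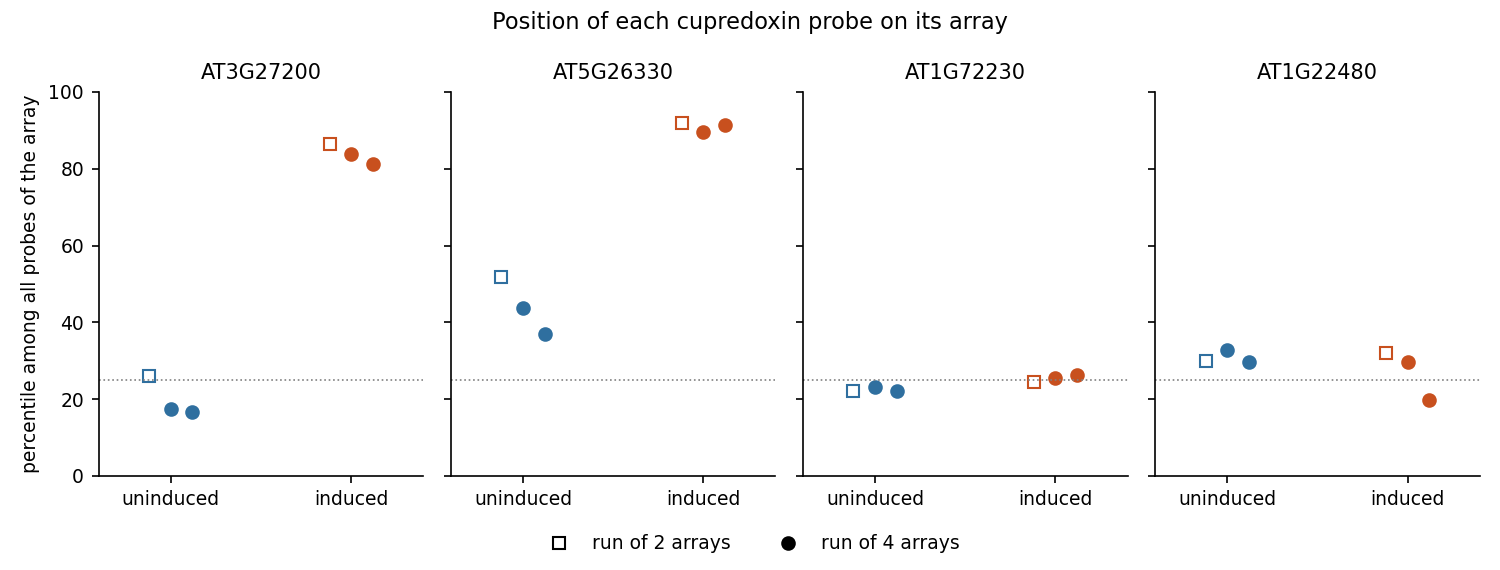
Percentile of each cupredoxin probe among all probes of the same array (vertical axis) in uninduced and induced samples; symbols mark the run of 2 and the run of 4, and the dotted line is the 25th percentile. AT3G27200 and AT5G26330 move from at most the 51.7th to at least the 81.2nd percentile, and AT1G72230 and AT1G22480 stay at or below the 32.8th.

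The difference between the runs was not used to choose the genes and could be tested. Identical values were mostly commoner within runs than between them (1 pair of arrays across the runs shared 16, and 1 pair within the run of 4 shared 15), and whether the runs were summarised and normalized together is not stated in the labels. A run difference may therefore include a difference in processing, whose part in it was not tested. In a limma fit with terms for group and run, 37.4% of all probes differed between the runs after adjustment, and 36.8% were lower in the run of 4. The median of the run differences over all probes was -0.42. All 4 cupredoxins were lower in the run of 4 by more than that. The array medians lay further apart than that median of differences, as given above. Low values shifted by more than the array medians. The 25th percentile of the arrays lay at 4.77 and 4.71 in the run of 2 and between 3.84 and 3.88 in the run of 4. For the low genes AT1G72230 and AT1G22480 the comparison with the median difference therefore shows nothing particular to them. AT1G72230 differed by -0.83 ± 0.08 (SE, limma adjusted p = 0.00503), AT3G27200 by -1.02 ± 0.19 (adjusted p = 0.0169) and AT1G22480 by -1.03 ± 0.21 (adjusted p = 0.0221). AT5G26330 differed by -0.94 ± 0.27 and did not pass (limma adjusted p = 0.0502). After quantile normalization none of the 4 passed (limma adjusted p from 0.0631 to 0.701), against 8.57% of all probes. After centring each array on its median none passed either (limma adjusted p from 0.167 to 0.458), against 38.7% of all probes. With the overall level of the arrays left as deposited, all 4 passed under trend and robust estimation (43.1% of all probes did) and 3 passed with array weights (35.1% of all probes). The 3 genes that remained after the lowest 25% of probes were left out all passed, as did 37.5% of the probes kept.

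With the run as a block, the standard error of the difference between induced and uninduced samples fell for every cupredoxin. It went from 0.44 to 0.18 for AT3G27200 and from 0.45 to 0.25 for AT5G26330. For AT1G72230 it went from 0.35 to 0.07, and for AT1G22480 from 0.46 to 0.20. Each run has both groups in the same proportion, so the block left the differences themselves as they were.

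Within the run of 2, 1 induced array against 1 uninduced array, AT3G27200 differed by 4.48 and AT5G26330 by 3.87. In the run of 4 the differences were 5.15 and 4.84. Both genes therefore stood higher in induced samples in each run, and by more in the run of 4. A test of that change between runs, on 2 residual degrees of freedom before moderation, gave 0.67 ± 0.24 for AT3G27200 and 0.97 ± 0.34 for AT5G26330 (SE, limma adjusted p = 0.804 and 0.812). The same term was -0.01 ± 0.17 for AT1G72230 and -0.53 ± 0.39 for AT1G22480 (limma adjusted p = 0.9996 and 0.931). The limma test called 0 of 38408 probes (0%) after adjustment, also with trend and robust estimation, and 6.18% at an unadjusted p under 0.05.

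The other phytocyanins were examined for the same contrast. Of 37 further genes listed by locus as phytocyanins, 11 were measured by name, and none of these passed the test in either direction (limma, Benjamini-Hochberg over all probes; 0.534% of probes were called). The 11 included none of the listed early nodulin-like genes and none of the uclacyanin genes UCC1, UCC2 and UCC3. The result therefore does not cover those genes. At an unadjusted p under 0.05, limma called 0 of the 11 (5.74% of probes), and the fit with the run as a block also called 0 after adjustment (1.03% of probes). Their differences ranged from -0.21 to 0.41, with 8 positive and 3 negative and a median of 0.16, where the median of all probes was -0.02. None of the 11 had its induced arrays all above or all below its uninduced ones. Their values ran from 2.51 to 6.69 over all 6 arrays. All lay below the median of their array except the induced values of AT3G60270.

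The largest difference among the 11 was that of AT3G60270. Its uninduced values were 6.06, 5.16 and 5.42 and its induced values 6.69, 5.45 and 5.71, a difference of 0.41 ± 0.40 (SE, limma adjusted p = 0.9999; with the block 0.290). AT3G53330 came next, with uninduced values of 4.85, 3.93 and 3.91 and induced values of 5.04, 4.35 and 4.45, a difference of 0.38 ± 0.34 (SE, limma adjusted p = 0.9999; with the block 0.220). Both genes were higher in induced samples within each run and overlapped between the groups. ARPN (AT2G02850), the plantacyanin of the pistil, was picked after its values were seen because its product is the best described, and gave 0.17 ± 0.36. A p that misses the threshold does not show equal levels. Over the 11 genes the 95% intervals of the difference reached from -1.62 to 1.43 without the block and from -0.55 to 0.77 with it. AT3G27200 and AT5G26330 were picked for this contrast, so setting their differences beside these intervals is no test. In the run comparison 9 of the 11 were called (36.8% of probes were lower in the run of 4), and all 11 were lower in the run of 4. Low values on these arrays shifted between the runs by more than the array medians, as given above. Among the 11, AT3G60270 was not low in induced samples.

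**Figure D3:**
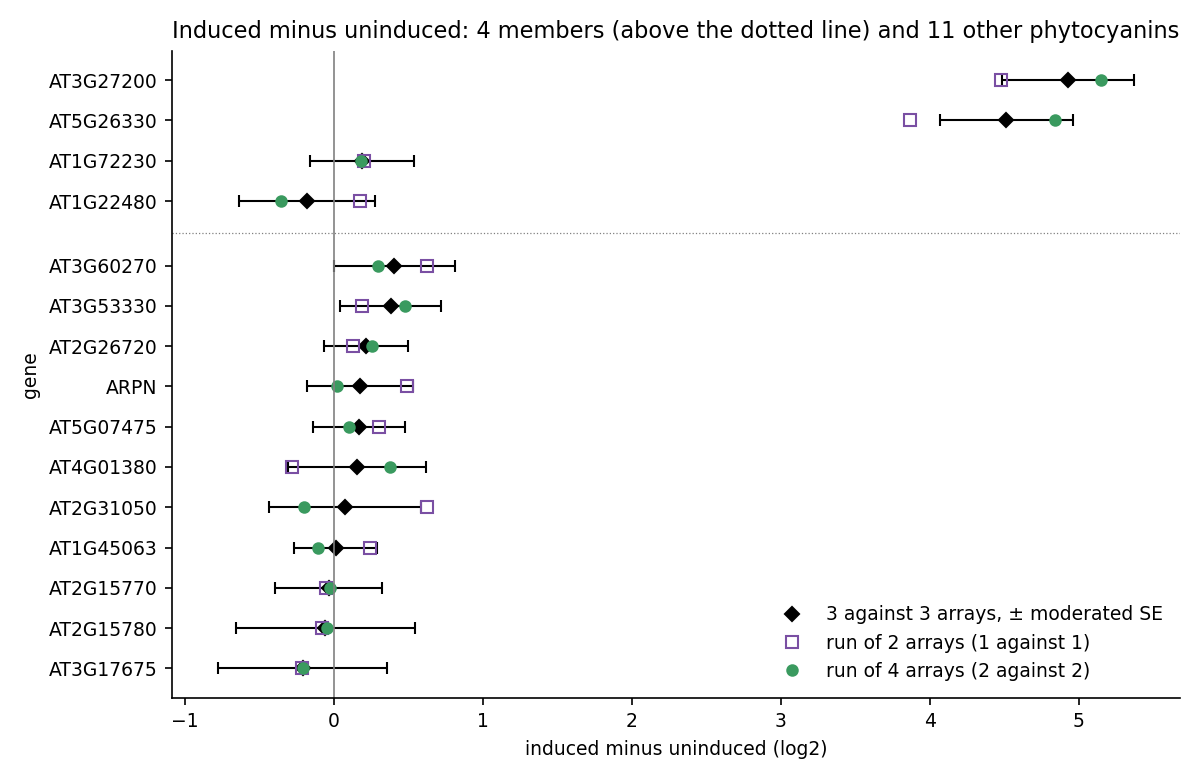
Induced minus uninduced difference on the log2 scale (horizontal axis) for the 4 cupredoxins above the dotted line and 11 other phytocyanins below it; diamonds with bars are all arrays ± moderated SE, squares the run of 2 and circles the run of 4. AT3G27200 and AT5G26330 lie at 3.87 or more in either run, and the other 13 genes lie within 0.63 of zero in both.

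Multicopper oxidases, the larger copper proteins with related domains, gave 0 calls among 11 measured of 41 listed (limma; 0.534% of probes called), and 1 at an unadjusted p under 0.05 (5.74% of probes). Of the listed laccases only AT5G01050 and LAC16 were among the 11. The result does not cover the others, such as LAC4, LAC11 and LAC17. The differences of the 11 genes ranged from -0.56 to 0.53 with a median of -0.07, where the median of all probes was -0.02. The largest was that of sks15, of the family of SKU5, a surface protein that affects directional root growth. It gave uninduced values of 11.34, 11.54 and 11.23 and induced values of 10.98, 10.62 and 10.81, a difference of -0.56 ± 0.16 (SE, limma adjusted p = 0.622; with the block 0.199). Its induced values were all below its uninduced ones, and so were those of AT5G21105, listed as an ascorbate oxidase, and LPR2, a multicopper oxidase of the root's response to low phosphate. That makes 3 of 11 genes, against 7.81% of all probes, and the last 2 were named for this after their values were seen. LAC16, a laccase, gave 0.53 ± 0.30 (SE, limma adjusted p = 0.9999; with the block 0.287).

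Genes that supply copper were sparsely covered. Of 25 listed transporters, chaperones and other copper proteins, 2 were measured by name, and 0 were called (limma; 0.534% of probes called), with 0 at an unadjusted p under 0.05 as well (5.74% of probes). CCS, the chaperone that loads copper into superoxide dismutase, gave uninduced values of 6.36, 6.21 and 6.19 and induced values of 6.36, 6.29 and 6.26. Both arrays of the run of 2 held the same value to the last deposited digit. The difference was 0.05 ± 0.12 (SE). AT1G53030, listed under COX17, a copper chaperone for cytochrome oxidase, gave -0.25 ± 0.32 (SE), and its groups overlapped. Of 21 fasciclin-like arabinogalactan proteins, surface proteins that can carry the same kind of anchor, 1 was measured, AT1G15190, at -0.09 ± 0.18 (SE), and it was not called either.

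The likeness of other genes to each cupredoxin was measured as the root-mean-square distance, over the 6 arrays, between values centred on the mean of each gene. AT3G27200 and AT5G26330 lay 0.29 apart on this scale, and each ranked number 4 among the genes nearest to the other. Both were 2.18 or more from AT1G72230 and AT1G22480, which lay 0.30 apart. Within a distance of 0.5 AT3G27200 had 10 other genes and AT5G26330 had 11. Within the same distance AT1G72230 had 14900 and AT1G22480 had 11799, most of the 16548 genes.

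The genes nearest to AT3G27200 were AT3G49330 at 0.26, TBL33, which acetylates xylan, at 0.28 and AT5G09480 at 0.28. Nearest to AT5G26330 were AT5G09480 at 0.15, AT3G49330 at 0.23 and AT5G12300 at 0.28. AT5G09480 and AT3G49330 are thus on both lists. AT5G12300 gave uninduced values of 5.90, 3.82 and 3.98 and induced values of 9.27, 8.75 and 8.70, a difference of 4.34 ± 0.59 that did not pass the test (SE, limma adjusted p = 0.0711). Its uninduced replicate 1 lay above the other uninduced arrays, as in AT3G27200 and AT5G26330. The gene was named for its small distance to AT5G26330, so this likeness follows from that choice.

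For AT1G72230 the nearest genes were AT1G10380 at 0.03, AT1G77855 at 0.04 and AT4G29030 at 0.05. For AT1G22480 they were AT2G02440 at 0.05, AT4G15960 at 0.06 and AT1G21530 at 0.06. The differences of these 6 genes between the groups lay between -0.18 and 0.22, and in all 6 replicate 1 was the highest array of each group. These likenesses are over 6 arrays that share their runs and overall levels, and they describe the arrays only.

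**Figure D4:**
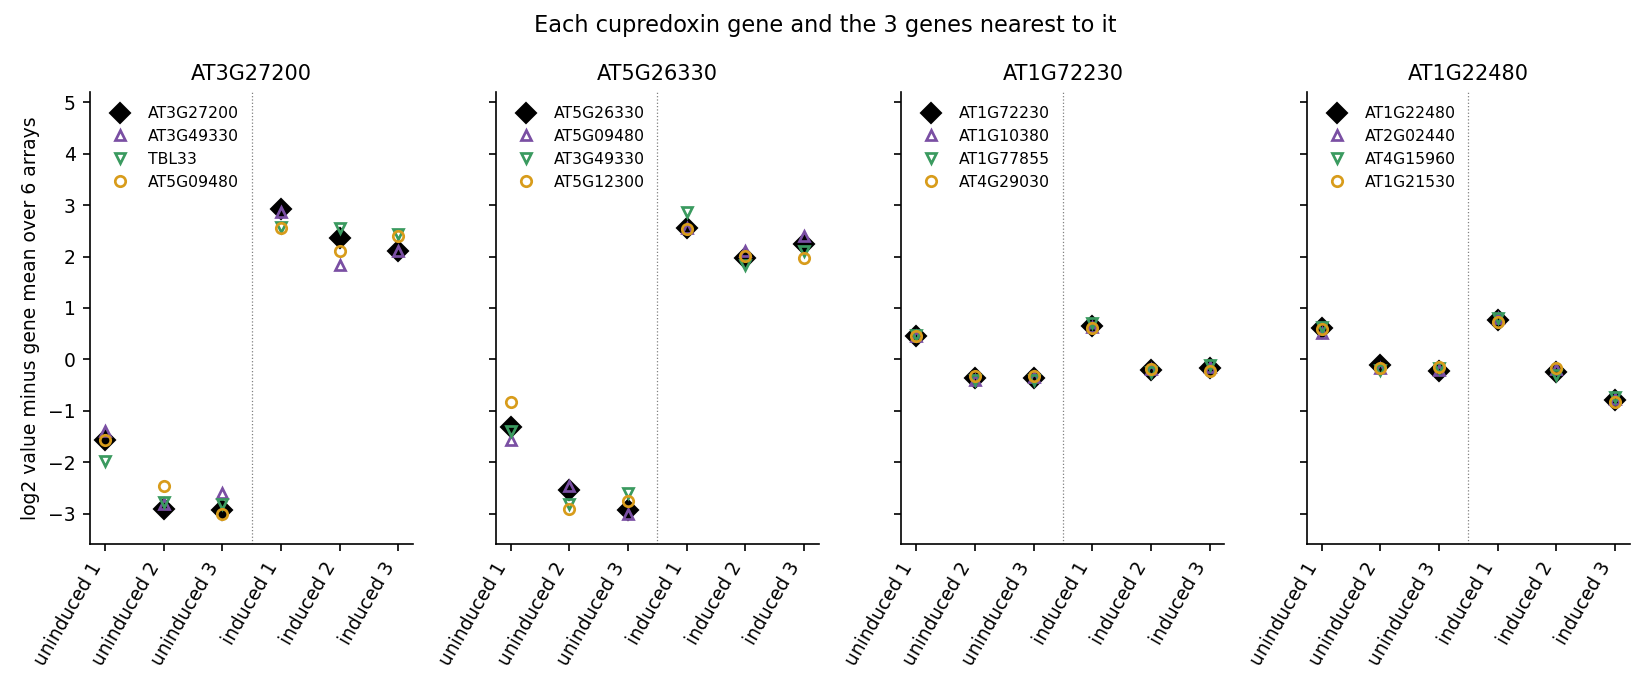
Log2 value minus the mean of the gene over 6 arrays (vertical axis) on each array (horizontal axis) for each cupredoxin (black diamonds) and the 3 genes nearest to it (coloured open symbols). The genes around AT3G27200 and AT5G26330 share a wide gap between the groups, and those around AT1G72230 and AT1G22480 share the higher replicate 1 of each group, which comes from the run of 2.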

How the data were processed

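Total RNA of 6 samples was hybridised to AraGene arrays. The authors deposited 1 log2 value per probe and array; the submitters' processing notes name Affymetrix Expression Console, version 1.3. The log base was read from the range, and for summarisation, background correction and build the method is not stated in the labels. Probes were named through the array annotation and the RefSeq gene table of TAIR10.1: of 38408 probes 16722 had 1 gene, 759 several and 20927 none. No filter or further normalization was applied. Groups come from the labelled stimulation, and replicate numbers only name samples. All probes were fitted with limma 3.58.1 in R 4.3.3 (lmFit, eBayes, Benjamini-Hochberg, threshold 0.05) and the script was tested on simulated data. In that simulation the fit found 1% of changes of 1 on the log2 scale and 39.4% of changes of 2. With the run as a block it found 37.8% and 71.4%. A count of 0 called therefore leaves room for changes of that size. Genes named are the 4 members, the 2 largest differences per list (no list had a call) and the 3 nearest genes per member; others are said to be outside this rule. The members and lists were chosen with earlier results of these data known. A phloem marker with a wrong locus was left out. Alternatives were trend with robust estimation, quantile normalization, median centring, leaving out the lowest 25% of probes, array weights, the run as a block, each run alone and leaving out each array. The phloem gene OPS (1 of 4 measured) gave 0.20 ± 0.16 (SE), and none of 3 endodermis markers was measured by name.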

Additional observations from a re-analysis of the deposited data

How the results depend on the processing

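The differences of AT3G27200 and AT5G26330 stayed positive under every alternative run, between 4.48 and 5.38 and between 3.87 and 4.99. Leaving out each array gave 4.69 to 5.38 for AT3G27200, 4.18 to 4.99 for AT5G26330, -0.09 to 0.46 for AT1G72230 and -0.61 to 0.17 for AT1G22480. The largest move was that of AT5G26330 to 3.87 in the run of 2 alone. The sign of AT1G72230 turned without induced replicate 1 (-0.09), and that of AT1G22480 turned without induced replicate 3 (0.17), without uninduced replicate 1 (0.07) and in the run of 2 alone (0.17). The count of 205 probes became 365 with trend and robust estimation, 323 after quantile normalization, 485 with array weights and 394 with the run as a block, and ranged from 56 to 154 when 1 array was left out. Quantile normalization lowered the count of probes that differed between the runs from 14356 to 3292. Median centring turned that count from 230 higher and 14126 lower to 11268 higher and 3603 lower in the run of 4. The cause of these shifts was not tested. None of the measured genes of the phytocyanin, multicopper oxidase, copper supply and fasciclin-like lists was called under any alternative run. The mean over several probes of a gene gave no value, since each cupredoxin has 1 probe. Single samples could not be paired because the labels give no replicate numbers, and the only grouping of arrays used was the run, as a block. Signal over background was not analysed here, so no bound is set for the low values.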
